A study of Mus musculus with 9 samples.

Results

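The surge of luteinizing hormone (LH) that triggers ovulation switches on a short programme of genes in the granulosa and cumulus cells of the follicle, and 10 of these genes are described here across ovaries of 3 genotypes. They were chosen by symbol from a table of 54838 genes: the epidermal growth factor-like ligands Areg, Ereg and Btc, the genes of the expanding cumulus matrix Has2, Tnfaip6, Ptx3 and Vcan, and the transcription factor genes Runx1, Runx2 and Cebpb. All 10 were in the table. The question was whether any genotype shows an ovulatory response at 40 h after pregnant mare serum gonadotropin (PMSG), a hormone preparation that drives follicle growth.

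Total RNA of adult mouse ovaries was sequenced in 9 libraries, 3 for each genotype, all collected at the same 40 h after PMSG. The ovaries labelled DKO_TG are given as a knockout of both liver X receptors (LXR) with a transgene labelled TG-AMH-LXRb. The ovaries labelled DKO carry the same double knockout alone, and the WT ovaries are wild type. These receptors bind oxysterols in the nucleus and regulate the handling of cholesterol and other lipids. The label names AMH and LXRb for the transgene, but the sources used here give neither its promoter nor the cells that express it. Whether the 3 libraries of a genotype are 3 animals is not stated either. The p-values therefore reflect the spread among libraries alone, and that spread may be technical. No library was taken before PMSG, and none is labelled as taken after human chorionic gonadotropin, so levels are described at 1 time and a response over time could not be measured.

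In the mouse follicle, LH acts on mural granulosa cells, which release amphiregulin, epiregulin and betacellulin. These ligands activate the epidermal growth factor receptor on neighbouring granulosa and cumulus cells. Cumulus cells then make hyaluronan and the proteins that crosslink it, and the cumulus around the oocyte expands. RUNX and C/EBP factors are part of the same programme, and some of its genes stay on in the corpus luteum that forms after ovulation.

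The LH signal reaches the nucleus largely through cyclic AMP, whose response element (CRE) has the palindrome TGACGTCA and the half-site TGACG. The 250 bases before the start of 3 members are shown because they hold the half-site, which is in capitals in either orientation. Sequences are from RefSeq (GRCm38.p6), on the coding strand. The Areg window lies at chr5:91139349-91139598 (plus strand), the Btc window at chr5:91402995-91403244 (minus strand) and the Cebpb window at chr2:167688665-167688914 (plus strand).
Areg: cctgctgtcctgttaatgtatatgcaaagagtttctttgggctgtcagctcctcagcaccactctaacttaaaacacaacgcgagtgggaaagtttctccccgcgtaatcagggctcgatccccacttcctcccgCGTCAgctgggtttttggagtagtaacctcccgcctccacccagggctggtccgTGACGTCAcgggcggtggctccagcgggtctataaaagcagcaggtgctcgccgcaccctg
Btc: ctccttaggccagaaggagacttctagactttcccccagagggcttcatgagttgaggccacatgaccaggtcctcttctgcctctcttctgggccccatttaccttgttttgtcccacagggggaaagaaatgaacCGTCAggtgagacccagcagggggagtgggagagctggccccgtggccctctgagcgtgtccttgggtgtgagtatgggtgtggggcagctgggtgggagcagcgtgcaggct
Cebpb: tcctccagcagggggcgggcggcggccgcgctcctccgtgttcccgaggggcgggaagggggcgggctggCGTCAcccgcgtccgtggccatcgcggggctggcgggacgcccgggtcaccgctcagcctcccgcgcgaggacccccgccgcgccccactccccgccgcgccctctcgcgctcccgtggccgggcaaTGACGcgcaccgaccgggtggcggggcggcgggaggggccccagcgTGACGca
RefSeq entries were matched for 8 of the 10 members. Has2 and Ereg are named only. Areg held the whole palindrome at 61 to 54 bases before its start and another half-site at 115 to 111. Btc held 1 half-site at 113 to 109 bases before its start, and Cebpb held 3, at 180 to 176, 53 to 49 and 7 to 3. Both orientations were searched in windows of the same length before 32851 mouse starts, and 1.55% held the palindrome (which contains the half-site) and 17.8% the half-site. The RUNX motif TGTGGT was in 14.0% of all windows and, among the members, in that of Runx2. The C/EBP motif TTGCNNAA was in 9.56% of all windows and in those of Ptx3 and Runx2. The windows of Tnfaip6, Vcan and Runx1 held none of the 4 motifs. These are matches of letters in a window and not measured binding sites.

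The libraries held 40.1 to 59.4 M reads, recovered from the deposited RPKM values (reads per kilobase of transcript, relative to library size). Nr1h3, which encodes LXRa, averaged 0.670 RPKM in DKO_TG, 0.807 RPKM in DKO and 4.68 RPKM in WT. Nr1h2, which encodes LXRb, averaged 5.67 RPKM in DKO_TG, 6.53 RPKM in DKO and 18.8 RPKM in WT. Both were below WT in all 6 libraries but were not at 0. Nr1h2 did not show the LXRb transgene, since it was at 5.14 to 5.96 RPKM in DKO_TG and at 5.79 to 7.79 RPKM in DKO. The deleted part of either gene is not given in the sources used here, so these reads may lie outside it. Granulosa markers Foxl2, Amhr2, Fshr, Nr5a2 and Esr2 were all at 4.95 RPKM or more in every library. WT stood apart from both other genotypes: the nuclear RNA Malat1 averaged 261 RPKM in DKO_TG, 199 RPKM in DKO and 7.38 RPKM in WT, and 56.7% of 18889 tested genes were called in DKO against WT. In a comparison with WT, such a difference between libraries and the genotype cannot be told apart.

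The 10 genes ranged from 0 to 22.0 RPKM, and 8 of them were at 3.60 RPKM or less in every library. Areg, Btc, Has2 and Ptx3 were under 1 RPKM in all 9 libraries, and Ereg, Vcan, Runx1 and Runx2 were at or above 1 RPKM in all 9. The median of the gene means was 1.58 RPKM in DKO_TG, 1.51 RPKM in DKO and 1.18 RPKM in WT. Runx2 and Vcan were the exceptions, at means of 9.001 to 16.8 RPKM and of 10.01 to 14.8 RPKM. Of 12 other genes induced by LH, 5 were at or above 1 RPKM in all 9 libraries: Ptger2, Adamts4, Adamts1, a protease gene, at 7.56 to 11.5 RPKM, Rgs2, at 33.4 to 67.1 RPKM, and Ctsl, at 129 to 339 RPKM. Another 5 were under 1 RPKM in all 9: Pgr, the progesterone receptor gene, Ptgs2, the prostaglandin synthase gene, Il6, Sult1e1 and Snap25. Ptgs2 was at 0.123 to 0.197 RPKM in DKO_TG, 0.222 to 0.562 RPKM in DKO and 0.0497 to 0.117 RPKM in WT. Pgr was at 0.315 to 0.427 RPKM in DKO_TG, 0.337 to 0.684 RPKM in DKO and 0.207 to 0.339 RPKM in WT. All 11 genes of the follicle before the surge were at 4.14 RPKM or more in every library, with medians of the gene means of 110 RPKM in DKO_TG, 73.8 RPKM in DKO and 82.1 RPKM in WT. These include Cyp19a1, the aromatase gene, at 26.5 to 32.5 RPKM in DKO_TG, 8.27 to 32.6 RPKM in DKO and 12.7 to 21.9 RPKM in WT, and Lhcgr, the LH receptor gene, at 98.6 to 122 RPKM in DKO_TG, 47.1 to 104 RPKM in DKO and 68.9 to 97.4 RPKM in WT. The lists overlapped in level, since Nppc, the gene of the natriuretic peptide that acts on NPR2, averaged 6.06 RPKM in DKO_TG, 9.01 RPKM in DKO and 7.995 RPKM in WT. The plot of mean level by gene list shows the lists side by side.

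**Figure D1:**
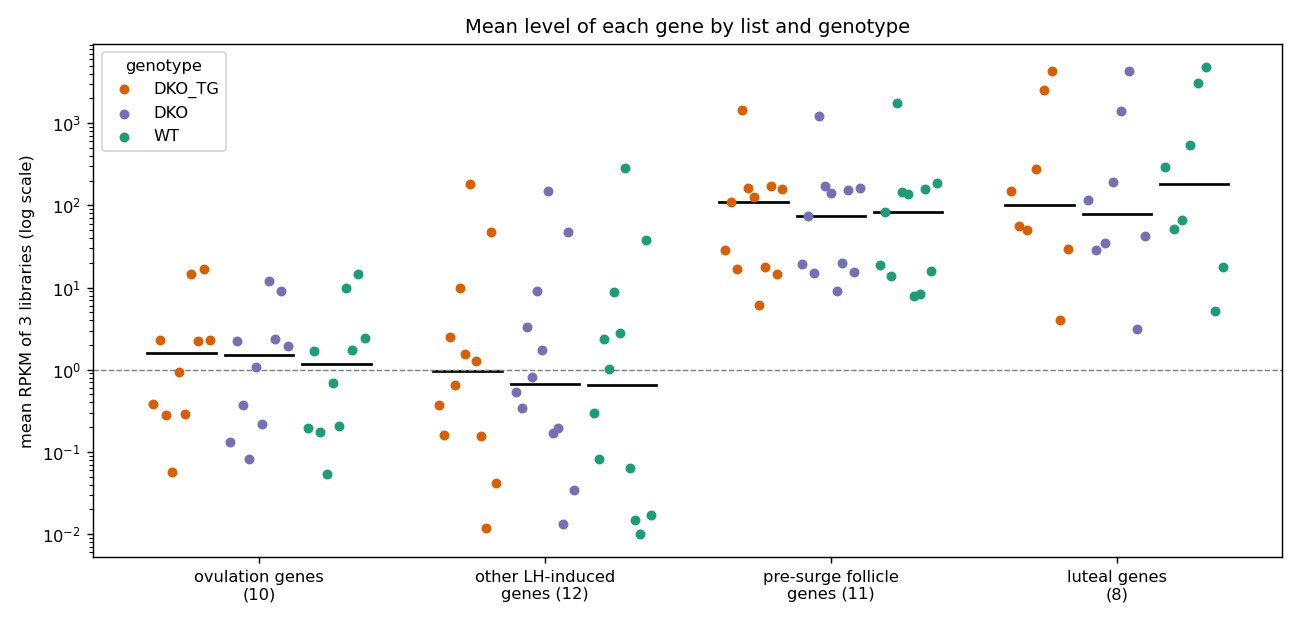
Mean RPKM over 3 libraries (log axis) of each gene in 4 lists, for DKO_TG, DKO and WT. Points are genes, black lines are medians of the list, the dashed line is 1 RPKM, and Sult1e1, listed at 0 in all WT libraries, is drawn at 0.01. The medians of the 10 ovulation genes sit between 1.18 and 1.58 RPKM, and those of the pre-surge follicle genes between 73.8 and 110 RPKM.

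The 3 ligand genes lie together on mouse chromosome 5 (mm10): Ereg at 91074622 to 91093646, Areg at 91139599 to 91148432, both on the plus strand, and Btc at 91357261 to 91402994 on the minus strand. Areg, the ligand gene with the palindrome shown above, was at 0.506, 0.476 and 0.165 RPKM in DKO_TG, at 0, 0.268 and 0.126 RPKM in DKO, and at 0.198, 0.331 and 0.0511 RPKM in WT. DKO_TG replicates 1 and 2 were the highest of the 9 libraries, but the third DKO_TG library lay within the range of both other genotypes. These levels rest on 30, 24 and 10 reads in DKO_TG, 0, 20 and 10 reads in DKO, and 11, 18 and 3 reads in WT. The count of 0 in DKO replicate 1 allows a level of up to 0.0482 RPKM (3 reads, counting error only). Areg was below the limit for testing, 0.5 RPKM or more in 3 or more libraries. Its group means differed with an exact two-sided permutation p of 0.2 for DKO_TG against DKO, 0.3 for DKO_TG against WT and 0.6 for DKO against WT. With 3 libraries against 3 the smallest p such a test can give is 0.1. Without a filter, the limma log2 change of Areg in DKO_TG against DKO was 0.48, with a 95% interval from -0.04 to 1.01 (adjusted p = 0.44).

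Ereg was at 2.91, 2.21 and 1.69 RPKM in DKO_TG, at 1.32, 1.83 and 3.60 RPKM in DKO, and at 1.58, 1.85 and 1.59 RPKM in WT. DKO replicate 3 was the highest and DKO replicate 1 the lowest of the 9 libraries, and the genotypes overlapped. The log2 change on the scale of log2(RPKM + 0.5) was 0.26 in DKO against WT, 0.33 in DKO_TG against WT and 0.07 in DKO_TG against DKO (adjusted p = 0.448, 0.352 and 0.927 in limma). The 95% intervals ran from -0.37 to 0.89, from -0.30 to 0.96 and from -0.56 to 0.70. Without DKO replicate 3 the value of DKO against WT was -0.07.

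Btc was at 0.349, 0.240 and 0.244 RPKM in DKO_TG, at 0.316, 0.299 and 0.511 RPKM in DKO, and at 0.155, 0.168 and 0.197 RPKM in WT. All 6 libraries of DKO_TG and DKO were above all 3 WT libraries, on 32 to 151 reads per library. Among tested genes, which leave Btc out, 61.2% did not overlap between DKO and WT and 65.8% between DKO_TG and WT. The mean of DKO was 2.17 times and that of DKO_TG 1.60 times the WT mean (exact two-sided permutation p = 0.1 for both, the smallest possible). Btc was below the limit for testing. Without a filter limma called it higher in DKO than in WT, with a log2 change of 0.37 and a 95% interval from 0.13 to 0.61 (adjusted p = 0.0295), where 31.8% of 38309 genes were called. On the recovered reads without a filter, limma-voom gave a log2 change of 1.00 (adjusted p = 0.0256), with 36.4% of genes called. The unfiltered limma call was lost without WT replicate 1, 2 or 3 (adjusted p = 0.0876, 0.0788 and 0.0586), with the replicate block (0.0525) and in a fit of the 6 libraries compared (0.0617), and the log2 change was -0.01 after quantile normalization. In DKO_TG against WT the log2 change was 0.21 (adjusted p = 0.195 in limma without a filter, with 28.7% of genes called), and in DKO_TG against DKO -0.16 (adjusted p = 0.607, with 0.6% of genes called). The plot of levels by library shows this gene with its groups apart from WT.

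**Figure D2:**
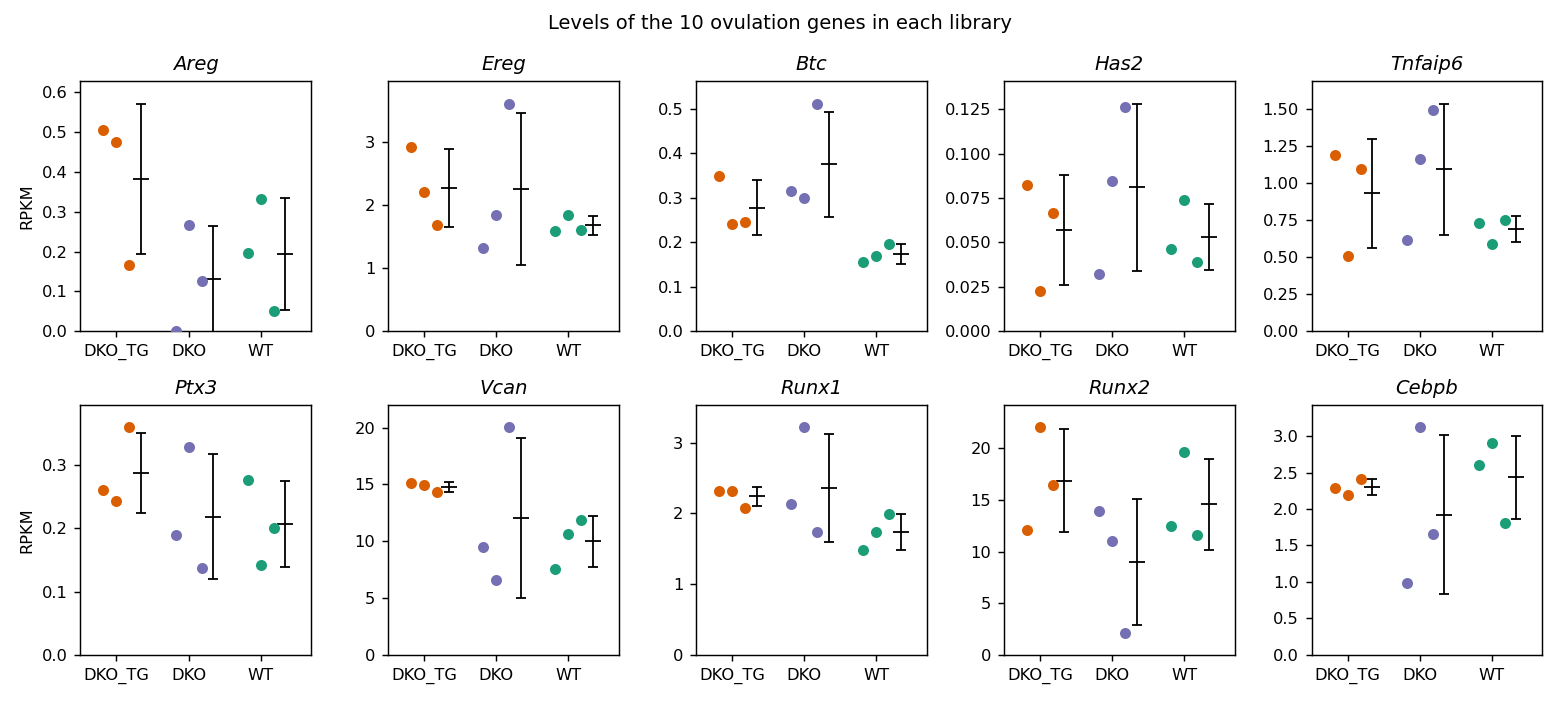
RPKM of each of the 10 genes (1 panel a gene, axes from 0) in the 3 libraries of DKO_TG, DKO and WT. Points are libraries in the order of their replicate numbers, and the bar beside them is the mean with its SD (n = 3). Btc lies above WT in all 6 other libraries, at 0.240 RPKM or more against at most 0.197 RPKM in WT, and Runx2 is at 2.15 RPKM in DKO replicate 3, against 10.98 RPKM or more in the other 8. Among tested genes, which leave Btc out, 61.2% do not overlap between DKO and WT and 65.8% between DKO_TG and WT.

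The matrix genes differed widely in level among themselves. Has2 (chromosome 15, 56665627 to 56694539, minus strand), the main hyaluronan synthase gene of the cumulus, was at 0.0822, 0.0228 and 0.0663 RPKM in DKO_TG, at 0.0323, 0.0845 and 0.126 RPKM in DKO, and at 0.0464, 0.0739 and 0.0391 RPKM in WT. The genotypes overlapped, and each value rests on 4 to 35 reads. Without a filter its 95% interval of the log2 change was from -0.08 to 0.22 in DKO against WT, on a scale that understates changes of genes this low. After quantile normalization without a filter, where 14.7% of genes were called lower in DKO_TG than in WT, Has2 was called lower there (log2 change -0.19, adjusted p = 0.0474 in limma), against 0.01 (adjusted p = 0.979) without that normalization.

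Tnfaip6 (chromosome 2, 52038009 to 52056686, plus strand) encodes TSG-6, which transfers heavy chains of inter-alpha-inhibitor onto hyaluronan. It was at 1.19, 0.507 and 1.09 RPKM in DKO_TG, at 0.617, 1.16 and 1.49 RPKM in DKO, and at 0.728, 0.588 and 0.751 RPKM in WT. DKO_TG replicate 2 and DKO replicate 1 lay within or below the WT range, and the other 4 libraries of these genotypes lay above it. The log2 change was 0.38 in DKO against WT and 0.23 in DKO_TG against WT (adjusted p = 0.214 and 0.465 in limma). It was -0.15 in DKO_TG against DKO (adjusted p = 0.811 in limma). The 95% intervals of the 3 ran from -0.18 to 0.95, from -0.33 to 0.80 and from -0.72 to 0.42.

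Ptx3 (chromosome 3, 66219910 to 66225805, plus strand) encodes pentraxin 3, which crosslinks the modified hyaluronan. It was at 0.260, 0.243 and 0.359 RPKM in DKO_TG, at 0.189, 0.328 and 0.137 RPKM in DKO, and at 0.277, 0.142 and 0.201 RPKM in WT, on 17 to 54 reads. The genotypes overlapped, and the exact two-sided permutation p of the difference in means was 0.4 for DKO_TG against DKO, 0.3 for DKO_TG against WT and 1 for DKO against WT. Without a filter its log2 change in DKO_TG against WT was 0.16 (adjusted p = 0.38 in limma). With TPM (length-adjusted reads scaled to the same sum in every library) and no filter it was 0.32 and was called (adjusted p = 0.048), where 30.1% of genes were called higher, and after quantile normalization it was -0.20.

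Vcan (chromosome 13, 89655312 to 89742509, minus strand) encodes versican, a hyaluronan-binding proteoglycan that ADAMTS1 cleaves in the periovulatory follicle. It was at 15.2, 15.0 and 14.3 RPKM in DKO_TG, at 9.48, 6.62 and 20.01 RPKM in DKO, and at 7.52, 10.7 and 11.8 RPKM in WT. The 3 DKO_TG libraries lay close together and above all WT libraries, while DKO replicates 2 and 3 were the lowest and the highest of the 9. The log2 change of DKO_TG against WT was 0.57 with a 95% interval from -0.20 to 1.33 (adjusted p = 0.187 in limma), and the groups not overlapping gave an exact two-sided permutation p of 0.1. The same change passed the threshold without DKO replicate 3 (adjusted p = 0.031 in limma) and in a fit of the 6 libraries compared (adjusted p = 0.02 in limma), since the spread of DKO enters the fit of all 9. In those fits 5628 and 5931 of all 18889 tested genes were called higher in DKO_TG than in WT. The log2 change was 0.13 in DKO against WT and 0.43 in DKO_TG against DKO (adjusted p = 0.751 and 0.577 in limma). Without DKO replicate 3 these were -0.29 and 0.86.

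Runx1 (chromosome 16, 92601466 to 92826149, minus strand) was at 2.32, 2.32 and 2.08 RPKM in DKO_TG, at 2.13, 3.21 and 1.74 RPKM in DKO, and at 1.49, 1.73 and 1.99 RPKM in WT. RUNX1 is a DNA-binding transcription factor that LH induces in granulosa cells. All DKO_TG libraries were above all WT libraries, and DKO overlapped both. The log2 change was 0.33 in DKO against WT and 0.30 in DKO_TG against WT, with 95% intervals from -0.07 to 0.73 and from -0.11 to 0.70 (adjusted p = 0.141 and 0.19 in limma). It was -0.03 in DKO_TG against DKO (adjusted p = 0.953 in limma). Without DKO replicate 3, DKO against WT gave 0.49 and was called (adjusted p = 0.0381 in limma), where 5354 of all 18889 tested genes were called higher.

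Runx2 (chromosome 17, 44495987 to 44814797, minus strand), whose product is a RUNX factor of periovulatory granulosa cells and of the young corpus luteum, was at 12.1, 22.0 and 16.5 RPKM in DKO_TG, at 13.9, 10.98 and 2.15 RPKM in DKO, and at 12.5, 19.6 and 11.6 RPKM in WT. DKO replicate 3 stood far below the other 8 libraries, which overlapped between the genotypes. The log2 change was -0.95 in DKO against WT and 1.15 in DKO_TG against DKO, with 95% intervals from -2.24 to 0.34 and from -0.13 to 2.44 (adjusted p = 0.177 and 0.372 in limma). Without DKO replicate 3 they were -0.19 and 0.39. The log2 change of Runx2 in DKO_TG against WT was 0.20 (adjusted p = 0.787 in limma).

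Cebpb (chromosome 2, 167688915 to 167690418, plus strand) encodes C/EBP beta, a factor needed for ovulation and luteinization in the mouse, and its window with 3 half-sites is shown above. It was at 2.29, 2.20 and 2.42 RPKM in DKO_TG, at 0.987, 3.12 and 1.66 RPKM in DKO, and at 2.60, 2.90 and 1.80 RPKM in WT. The DKO libraries spanned both ends, replicate 1 being the lowest and replicate 2 the highest of the 9. The log2 change was -0.35 in DKO against WT and 0.31 in DKO_TG against DKO (adjusted p = 0.31 and 0.65 in limma), with 95% intervals from -1.004 to 0.295 and from -0.34 to 0.96. Without DKO replicate 2 the value in DKO against WT was -0.69 and was called (adjusted p = 0.0205 in limma), where 5216 of all 18889 tested genes were called lower. The value in DKO_TG against WT was -0.05 (adjusted p = 0.899 in limma). Exons of Tmem189 on the opposite strand cover 20.7% of the Cebpb exons, and the use of strand in counting is not given in the sources used here, so its level is uncertain. Exons on the opposite strand cover 5.87% of Runx2 and 4.30% or less of Has2, Ereg and Runx1.

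Of the 10 genes, 6 passed the filter: Ereg, Tnfaip6, Vcan, Runx1, Runx2 and Cebpb. In limma 0 of the 6 were called in DKO against WT, where 56.7% of all 18889 tested genes were called. Likewise 0 of the 6 were called in DKO_TG against WT, where 51.4% of all tested genes were called, and 0 of the 6 in DKO_TG against DKO, where 2.23% were called. At an unadjusted p under 0.05 the counts were also 0 in each comparison. The share of all tested genes at that threshold is not given here. Limma-voom on the recovered reads called 0 of the 6 in each comparison. Of 18886 genes it called 5938 higher and 4724 lower in DKO against WT. It called 5350 and 4332 in DKO_TG against WT, and only 76 and 365 in DKO_TG against DKO. The median log2 change of the 6 was 0.19 in DKO against WT, 0.26 in DKO_TG against WT and 0.19 in DKO_TG against DKO. Over all tested genes the medians were 0.02, 0.03 and 0.03. The comparisons with WT share the WT libraries. The groups did not overlap for 0 of the 6 in DKO against WT and for 2 of the 6, Vcan and Runx1, in DKO_TG against WT, where 61.2% and 65.8% of all tested genes did not overlap. Rescaling to TPM called Runx1 and Tnfaip6 higher in DKO than in WT and Vcan and Runx1 higher in DKO_TG than in WT, and rescaling to the plain total of reads called Runx1 higher in both. With TPM 53.1% of all tested genes were called higher in DKO and 51.6% in DKO_TG, and with the plain total 43.6% and 39.6%. With TPM the median of all tested genes itself moved to 0.48 in DKO against WT and 0.47 in DKO_TG against WT, and with the plain total to 0.29 and 0.25. Relative to that median the log2 change of Runx1 with TPM was 0.27 in DKO and 0.23 in DKO_TG, those of Tnfaip6 and Vcan 0.22 in DKO and 0.60 in DKO_TG. The share of higher genes among those called in DKO against WT was 54.4%, 90.4% with TPM, 78.1% with the plain total and 46.8% after quantile normalization. The share in DKO_TG against WT was 56.6%, 90.7% with TPM, 77.0% with the plain total and 45.6% after quantile normalization.

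**Figure D3:**
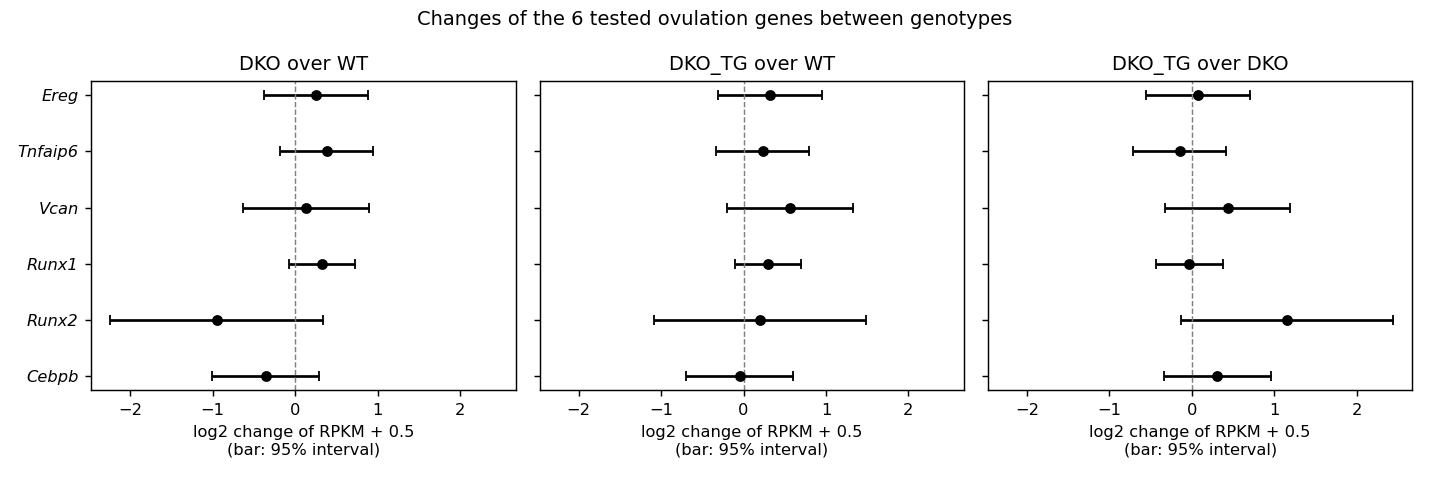
Log2 change of RPKM + 0.5 (x axis) of the 6 tested genes in DKO over WT, DKO_TG over WT and DKO_TG over DKO. Points are limma estimates, bars their 95% intervals, and the dashed line is no change. All 18 intervals include 0, and that of Runx2 is the widest in each panel, from -2.24 to 0.34 in DKO over WT.

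Ranked by mean RPKM, the genes fell into similar tiers in the 3 genotypes. Runx2 and Vcan led, at 16.8 ± 4.97 and 14.8 ± 0.437 RPKM in DKO_TG, 9.001 ± 6.11 and 12.04 ± 7.05 RPKM in DKO, and 14.6 ± 4.41 and 10.01 ± 2.23 RPKM in WT (SD, n = 3 each). These 2 overlapped in every genotype and so did Cebpb, Ereg and Runx1 among themselves, which followed at means of 2.24 to 2.30 RPKM in DKO_TG, 1.92 to 2.36 RPKM in DKO and 1.67 to 2.43 RPKM in WT. Tnfaip6 came next, at 0.929 ± 0.368 RPKM in DKO_TG, 1.09 ± 0.442 RPKM in DKO and 0.689 ± 0.0878 RPKM in WT (SD, n = 3 each), and did not overlap the gene that followed it in any genotype. Areg, Ptx3 and Btc changed places between genotypes, with overlapping neighbours, and Has2 was last in all 3. In DKO the tiers of Runx2 and Runx1 overlapped, since Runx2 was at 2.15 RPKM in replicate 3, and so did Cebpb and Tnfaip6. Among genes with a value above 0, the median percentile over the 9 libraries was 83.2 for Runx2, 80.2 for Vcan, 29.5 for Areg and 19.6 for Has2.

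DKO replicate 3 held the highest level of 5 of the 10 genes (Ereg, Btc, Has2, Tnfaip6 and Vcan) and the lowest of Ptx3 and Runx2. It also had the highest Fshr of the 9 libraries, at 26.96 RPKM, and the lowest Lhcgr, at 47.1 RPKM. Ptgfr, the prostaglandin F receptor gene of luteal cells, was at 0.582 RPKM there, against 11.5 RPKM or more in the other 8, and Cemip, a hyaluronan-degrading gene, at 0.569 RPKM against 4.92 RPKM or more. Of the other luteal genes listed, Prlr, Star and Cyp11a1 were also lowest there, at 23.7, 101 and 978 RPKM. Akr1c18, Hsd3b1, Cdkn1a and Cdkn1b were not lowest there, at 16.6, 4267, 2.84 and 35.6 RPKM. Runx2, Ptgfr, Akr1c18 and Cemip, which is a gene of the hyaluronan list and not of the luteal list, were chosen for this comparison after their values were seen. In DKO_TG replicate 2, where Runx2 was highest, Ptgfr was at 89.9 RPKM, Cemip at 26.6 RPKM and Akr1c18, the luteal progesterone-degrading enzyme gene, at 383 RPKM. These genes were also high in libraries with less Runx2: WT replicate 3 had 70.5 RPKM of Ptgfr, 23.5 RPKM of Cemip and 712 RPKM of Akr1c18 with Runx2 at 11.6 RPKM, and DKO replicate 1 had 73.9 RPKM of Ptgfr and 316 RPKM of Akr1c18 with Runx2 at 13.9 RPKM. In whole ovaries, a smaller share of a cell type and less RNA per cell cannot be told apart.

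**Figure D4:**
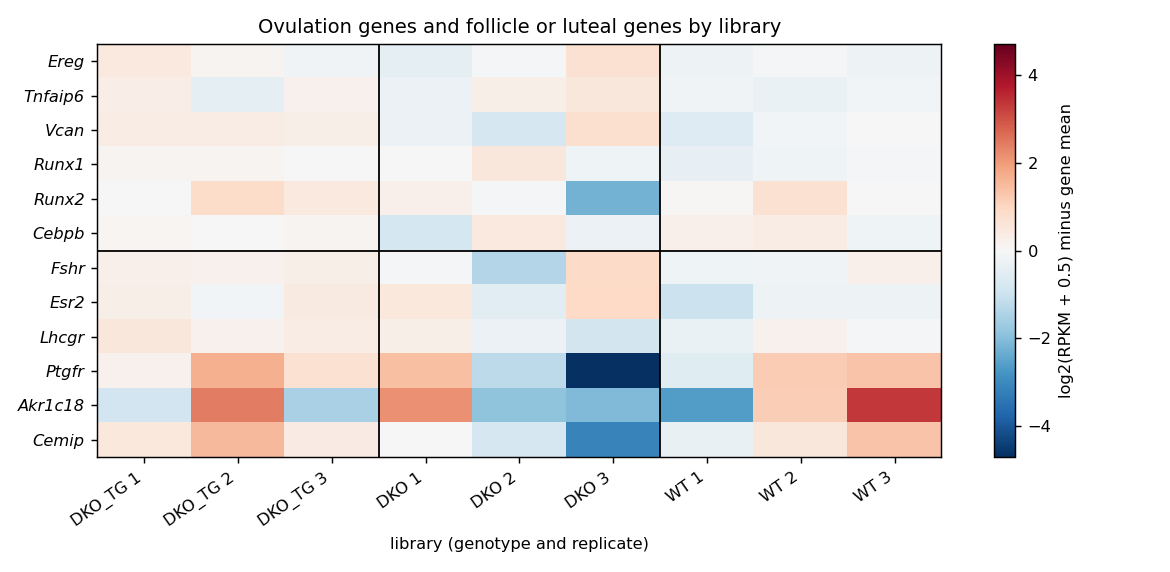
Log2(RPKM + 0.5) of each gene minus its own mean over the 9 libraries (colour, red above and blue below the mean) for the 6 tested ovulation genes (upper rows) and 6 other genes (lower rows). The lower rows, chosen after their values were seen, are follicle or luteal genes and Cemip, a gene of the hyaluronan list. Columns are libraries, with lines between DKO_TG, DKO and WT. DKO replicate 3 is the lowest library for Runx2, Ptgfr and Cemip and the highest for Ereg, Tnfaip6, Vcan and Fshr.

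Markers of blood cells also differed between the DKO libraries. The summed level of 5 neutrophil markers was 2.17 to 2.55 RPKM in DKO_TG, 6.90, 19.6 and 94.5 RPKM in DKO replicates 1, 2 and 3, and 1.29 to 1.71 RPKM in WT. The summed level of 8 macrophage markers was 26.1 to 29.7 RPKM in DKO_TG, 44.8 to 68.7 RPKM in DKO and 27.6 to 34.7 RPKM in WT. In limma 7 of the 8 macrophage markers were higher in DKO than in WT and 6 were lower in DKO_TG than in DKO, where 30.8% and 1.73% of all tested genes were called in those directions. Itgam, which these counts include, reached 0.5 RPKM only in DKO, so it was tested only through the group where it was high. Exons of Gm49368 on the same strand cover 68.7% of the Itgam exons. Exons of Hmgxb3 on the opposite strand cover 15.1% of those of Csf1r, so the levels of Itgam and Csf1r are uncertain. Of 4 tested neutrophil markers 4 were called higher in DKO than in WT, and 0 were called in DKO_TG against DKO. DKO replicate 2, with the highest macrophage sum, held the highest Runx1 and Cebpb of the 9 libraries, 3.21 and 3.12 RPKM, and the highest Ptgs2, 0.562 RPKM. Vcan was the lowest of the 9 in that library, at 6.62 RPKM. Runx1, Cebpb and Vcan are also expressed by myeloid cells. The part of these cells in the levels of the 10 genes was not tested. No neutrophil or macrophage marker was at 0 in all libraries of a genotype.

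The sums of 3 theca markers, nearly all of it Cyp17a1, were 618 to 960.5 RPKM in DKO_TG, 64.4 to 208 RPKM in DKO and 168 to 959.5 RPKM in WT. The other 2 theca markers were higher in DKO than in WT (adjusted p in limma 0.000745 for Insl3 and 0.0384 for Ptch1). In that comparison 30.8% of all tested genes were called higher. Exons of Jak3 on the same strand cover 64.8% of the Insl3 exons, so the level of Insl3 is uncertain. Insl3 also reached the 0.5 RPKM of the filter only in DKO libraries. It was therefore tested only through the group where it was high. Insl3, a peptide hormone gene, averaged 0.205 RPKM in DKO_TG, 0.853 RPKM in DKO and 0.0117 RPKM in WT, and Ptch1, a hedgehog receptor gene, 5.79 RPKM in DKO_TG, 6.16 RPKM in DKO and 4.21 RPKM in WT. Sums of 4 oocyte markers were 32.4 to 45.7 RPKM in DKO_TG, 22.1 to 50.1 RPKM in DKO and 9.72 to 21.4 RPKM in WT. Granulosa marker sums overlapped, at 127 to 142 RPKM in DKO_TG, 104 to 170 RPKM in DKO and 120 to 153 RPKM in WT. Of these 5 markers Foxl2, a granulosa transcription factor gene, was called lower in both comparisons with WT, at 23.4 to 25.05 RPKM in DKO_TG, 22.7 to 29.97 RPKM in DKO and 33.8 to 40.3 RPKM in WT (adjusted p = 0.00538 in DKO and 0.00288 in DKO_TG in limma). Of all tested genes 25.9% were called lower in DKO and 22.3% in DKO_TG against WT. Fibroblast marker sums were 278 to 355 RPKM in DKO_TG, 381 to 472 RPKM in DKO and 450 to 539 RPKM in WT, and endothelial ones 58.3 to 70.3 RPKM in DKO_TG, 46.3 to 71.0 RPKM in DKO and 79.96 to 87.3 RPKM in WT. Oviduct marker sums were 9.44 to 12.1 RPKM in DKO_TG, 10.2 to 19.4 RPKM in DKO and 7.03 to 8.87 RPKM in WT, and surface epithelium ones 4.38 to 13.0 RPKM in DKO_TG, 17.3 to 26.7 RPKM in DKO and 19.6 to 44.9 RPKM in WT. In DKO against WT 2 of 6 fibroblast, 4 of 5 endothelial and 0 of 5 surface epithelium markers were called lower. The counts in DKO_TG against WT were 4, 3 and 4. Of 3 tested oviduct markers, 2 were called higher and 1 lower in DKO against WT. In DKO_TG against WT 1 was called higher, where 29.1% of all tested genes were called higher.

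Sheddases free the ligands from the cell membrane, and receptors of the EGF receptor family bind them. Of 11 genes of the epidermal growth factor receptor network 7 were tested. Adam17, which encodes the sheddase of several such ligands, was called higher in DKO than in WT and in DKO_TG than in WT, by log2 changes of 0.22 and 0.23 (adjusted p = 0.0365 and 0.0362 in limma). In those comparisons 30.8% and 29.1% of all tested genes were called higher. Both calls were lost with the replicate block, by limma-voom without a filter, without WT replicate 1 or 2 and without any one of the DKO_TG libraries. The call in DKO was also lost without DKO replicate 1 or 3 and in the fit of the 6 libraries compared. That in DKO_TG was also lost by limma-voom with the filter and after quantile normalization. The other 6 were not called. Egfr was at 5.99 to 7.02 RPKM in DKO_TG, 5.82 to 8.16 RPKM in DKO and 6.32 to 6.70 RPKM in WT, and Adam10 at 27.3 to 31.6 RPKM in DKO_TG, 26.3 to 30.1 RPKM in DKO and 21.7 to 27.8 RPKM in WT.

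Of the 12 other LH-induced genes 6 were tested, and in DKO against WT 1 rose and 2 fell, at a background of 30.8% called higher and 25.9% called lower. Ptger2, a prostaglandin E receptor gene of cumulus cells, rose by 0.44 on the log2 scale (adjusted p = 0.0162 in limma), a call lost without WT replicate 2. Adamts4, a proteoglycan-cleaving protease gene, had log2 changes of -0.56 in DKO and -0.68 in DKO_TG against WT (adjusted p = 0.000827 and 0.000312 in limma). Its levels were 1.66, 1.44 and 1.56 RPKM in DKO_TG, 1.81, 1.69 and 1.70 RPKM in DKO, and 2.77, 2.62 and 2.95 RPKM in WT, with both mutant groups below WT. Ctsl, the cathepsin L gene, had log2 changes of -0.91 in DKO and -0.61 in DKO_TG against WT (adjusted p = 0.00168 and 0.0133 in limma), and the second call was lost without DKO_TG replicate 1. For DKO_TG against WT the background was 29.1% called higher and 22.3% called lower, and 3 of the 6 fell and 0 rose: Adamts4, Ctsl and Ptger4, with -0.38 (adjusted p = 0.0386 in limma), whose call was lost without WT replicate 1 or 3 or any one DKO_TG library, with the replicate block, without a filter, with TPM and with the plain total. Adamts4 was not called with TPM in either comparison, Ctsl was not called with TPM in either, after quantile normalization in DKO or with the plain total in DKO_TG, and its log2 change in DKO_TG turned to 0.02 after quantile normalization. Ptger2 was not called after quantile normalization. Exons of Gm47123 on the opposite strand cover 26.8% of those of Ctsl, and exons of Gm49230 on the same strand 6.09%. Exons of Gm15937 on the opposite strand cover 15.3% of those of Ptger4, so the levels of Ctsl and Ptger4 are uncertain. Rgs2, a gene for a regulator of G protein signalling and one of the most abundant of the list beside Ctsl, was at 44.2 to 50.2 RPKM in DKO_TG, 33.4 to 67.1 RPKM in DKO and 35.1 to 39.5 RPKM in WT and was not called. Edn2, an ovulatory endothelin gene chosen after its values were seen, was below the limit for testing, with 3.35 RPKM in DKO_TG replicate 2 and at most 0.294 RPKM in the other 8 libraries.

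Of 17 genes of the hyaluronan matrix and its turnover 12 were tested, and in DKO against WT 2 rose and 4 fell, at a background of 30.8% called higher and 25.9% called lower. Hapln3, a hyaluronan link protein gene, rose by 0.93 in DKO and by 0.93 in DKO_TG on the log2 scale (adjusted p = 0.000848 and 0.000949 in limma), at 0.974 to 1.32 RPKM in DKO_TG, 0.931 to 1.35 RPKM in DKO and 0.277 to 0.477 RPKM in WT. Has3, another hyaluronan synthase gene, rose by 0.79 and 0.84 (adjusted p = 0.00268 and 0.00204 in limma), at 0.650 to 0.881 RPKM in DKO_TG, 0.508 to 0.891 RPKM in DKO and 0.116 to 0.227 RPKM in WT. Hapln3 and Has3 were under the 0.5 RPKM of the filter in every WT library. They were therefore tested only through the groups where they were high, and the filter favoured the direction of these calls. Acan, which encodes aggrecan, and Cd44, a hyaluronan receptor gene, had log2 changes of -1.24 and -0.68 in DKO against WT (adjusted p = 0.00387 and 0.0081 in limma). For DKO_TG against WT, at a background of 29.1% and 22.3%, 2 rose, Hapln3 and Has3, and 1 fell, Hyal2, with -0.36 (adjusted p = 0.0149 in limma), a call lost without WT replicate 2 or DKO_TG replicate 1. Has3 was not called after quantile normalization, Cd44 was not called with TPM or the plain total, Hyal2 was not called with the plain total, and the value of Hyal2 turned to 0.15 with TPM. Itih5 was the most abundant of the list, at 30.3 to 39.4 RPKM in DKO_TG, 26.6 to 45.1 RPKM in DKO and 31.3 to 37.9 RPKM in WT.

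Among 7 tested partners of the RUNX and C/EBP factors 3 rose and 0 fell in each comparison with WT, where 30.8% of all tested genes were called higher in DKO and 29.1% in DKO_TG. Cbfa2t2, a corepressor gene, rose by 0.56 in DKO and 0.59 in DKO_TG on the log2 scale (adjusted p = 0.00405 and 0.00332 in limma). Cebpg rose by 0.31 and 0.61 (adjusted p = 0.0192 and 0.000734 in limma), the first call being lost without WT replicate 1 and by limma-voom without a filter. Cebpd rose by 0.81 in DKO (adjusted p = 0.00216 in limma) and Runx1t1 by 0.48 in DKO_TG (adjusted p = 0.00501 in limma). Runx1t1 was at 0.313 to 0.367 RPKM in WT, so it passed the filter only through libraries of the other genotypes, where it was higher. After quantile normalization Cebpd was not called and Runx1t1 turned to -0.05. Exons of Spidr on the opposite strand cover 15.0% of those of Cebpd, whose level is therefore uncertain. Cbfb, the shared partner that RUNX proteins need to bind DNA well, was the most abundant, at 32.5 to 36.2 RPKM in DKO_TG, 30.7 to 34.1 RPKM in DKO and 28.1 to 31.1 RPKM in WT, and was not called. Cebpa was at 11.8 to 16.8 RPKM over the 9 libraries.

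Oocyte factors of the transforming growth factor beta family enable cumulus expansion. Of 8 genes of these signals, all tested, 1 rose and 1 fell in DKO against WT, and 3 rose and 0 fell in DKO_TG against WT, where 56.7% and 51.4% of all tested genes were called in either direction. Gdf9, an oocyte factor gene, rose by 1.14 in DKO and 1.29 in DKO_TG (adjusted p = 0.028 and 0.0183 in limma). Gdf9 is also 1 of the 4 oocyte markers, and of the other 3 Zp2 and Zp3, genes of the zona pellucida, were called higher in both comparisons, by 1.34 and 0.98 in DKO and by 1.47 and 1.09 in DKO_TG (adjusted p = 0.0134, 0.0234, 0.00945 and 0.0165 in limma). The calls of Gdf9 were lost without WT replicate 1, without DKO replicate 1 or 3, without a filter or in the fit of 6 libraries for DKO, and without DKO_TG replicate 1 or 3 for DKO_TG. Bmp15 had a log2 change of 1.70 in DKO_TG against WT (adjusted p = 0.0234 in limma), lost without WT replicate 1 or 3 or DKO_TG replicate 1 or 3, without a filter and after quantile normalization. Tgfbr1 rose by 0.69 in DKO_TG (adjusted p = 0.00612 in limma), and Smad2 had -0.38 in DKO against WT (adjusted p = 0.0119 in limma), which turned to 0.16 with TPM. With the plain total of reads Smad2 was not called.

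Of the 11 pre-surge follicle genes 1 rose and 0 fell in each comparison with WT, where 56.7% of all tested genes were called in DKO and 51.4% in DKO_TG. It was Npr2, the receptor gene for the natriuretic peptide that holds the oocyte in meiotic arrest, at 15.4 to 18.8 RPKM in DKO_TG, 13.5 to 23.7 RPKM in DKO and 5.60 to 9.77 RPKM in WT (log2 change 1.202 in DKO and 1.08 in DKO_TG, adjusted p = 0.00368 and 0.0068 in limma). The most abundant genes of the list were Inha, the inhibin alpha subunit gene, at 1281 to 1569 RPKM in DKO_TG, 874 to 1639.7 RPKM in DKO and 1503 to 1979.7 RPKM in WT, and Hsd17b1, an estradiol-forming enzyme gene, at 130 to 179 RPKM in DKO_TG, 96.3 to 247 RPKM in DKO and 131 to 222 RPKM in WT. Among 8 luteal genes 1 rose and 3 fell in DKO against WT, at a background of 30.8% called higher and 25.9% called lower. Star, Cyp11a1 and Prlr had log2 changes of -1.52, -1.13 and -0.97 (adjusted p = 0.00872, 0.00659 and 0.00555 in limma), and Cdkn1b rose by 1.28 (adjusted p = 0.00306 in limma). The calls of Star, Cyp11a1 and Prlr were lost after quantile normalization, that of Prlr with TPM and that of Cyp11a1 without a filter. Star and Cyp11a1 carry out the first steps of steroid synthesis and are not luteal alone. For DKO_TG against WT, 1 rose, Cdkn1b, by 0.78 (adjusted p = 0.0311 in limma), and 0 fell, at a background of 29.1% and 22.3%. That call of Cdkn1b was lost without any one of the DKO_TG libraries and without a filter, in limma and in limma-voom. In DKO_TG against DKO, 0 genes of these 7 lists were called, at a background of 0.498% called higher and 1.73% called lower. At an unadjusted p under 0.05 the count there was 1 each for the receptor network, the other LH-induced genes, the oocyte signals and the pre-surge genes, 4 for the hyaluronan matrix, 3 for the RUNX and C/EBP partners and 2 for the luteal genes. The share of all tested genes at that unadjusted threshold is not given here, so these counts cannot be set against a background.

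By the root mean square difference between log2(RPKM + 0.5) values centred on each gene's mean over the 9 libraries, 11662 genes were compared with Areg and with Tnfaip6. The closest to Areg were Atn1 (0.19), Cox20b (0.19) and Borcs7 (0.20), against 0.33 for a flat profile, and the closest to Tnfaip6 were Cenph (0.14), Spdl1 (0.17) and Cep55 (0.20), against 0.32. The 9 libraries share their genotypes and depth, so this likeness is a description.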

How the data were processed

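Ovary RNA of 9 libraries (DKO_TG, DKO and WT, 3 each) was measured. The authors deposited 1 table of RPKM values, with 1 column a library. Per the submitters' processing notes, the authors' tools included HISAT2 2.1.0 and HTSeq 0.5.4p5, beside cutadapt and DESeq2 1.2.8, with the build mm10. For the annotation, the use of strand and the RPKM step, nothing is stated. In the table's header the transgene has another spelling than in the labels, and these columns were assigned by group and number.

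Identifiers were matched to GENCODE M21 for 54809 of 54838 genes. RPKM times exon length gave whole reads (within 0.01 read or a relative 1e-06) for 97.8% of values. The library size behind the deposited RPKM was 0.793 to 0.920 of the recovered total in WT and 1.03 to 1.11 of it in the other libraries, so the values carry a rescaling between libraries.

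Log2(RPKM + 0.5) was fitted with limma 3.58.1 (mean-variance trend, R 4.3.3) over all 9 libraries for the 18889 genes that reached 0.5 RPKM in 3 or more libraries. P-values were adjusted over all of them by the Benjamini-Hochberg method, and genes under 0.05 were called. Fold changes on this scale understate changes of low genes. A count test had been planned for a table of counts and was not used. The fits were tested on simulated data. Group means were also compared by exact permutation (Python 3.11.15, scipy 1.17.1). Counting limits cover counting error only.

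The members and lists were chosen with earlier results of these data known. Named are all members, and of each other list the called genes (up to 4 a comparison with the smallest adjusted p) and the 2 with the highest mean RPKM. Of the marker lists, summed levels, counts and called granulosa, oocyte and theca markers are printed. The 3 genes most like Areg and Tnfaip6 were taken among tested genes with a mean RPKM of at least 1. Outside this rule, Malat1, Egfr, Edn2, Pgr, Ptgs2, Il6, Sult1e1, Snap25, Adamts1, Cyp19a1, Lhcgr, Fshr, Esr2, Nppc, Ptgfr and Akr1c18 were chosen after their values were seen. Other settings tried were 2 pseudocounts (0.1 and 1), 2 filters (none and 1 RPKM), 4 scalings (TMM, TPM, quantile, plain total), limma-voom on recovered reads, a replicate block, fits of 6 libraries only and fits lacking 1 library. Same-numbered libraries did not deviate together, so the numbers were not taken to pair them.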

Additional observations from a re-analysis of the deposited data

How the results depend on the processing

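In the 3 comparisons, 0 of the 6 tested ovulation genes were called higher and 0 lower, and the count stayed at 0 with both pseudocounts, the filter at an RPKM of 1, TMM, quantile normalization, limma-voom with the filter and the replicate block. In DKO against WT, 1 was called higher without a filter and 1 by limma-voom without a filter (Btc in both), 2 with TPM (Runx1 and Tnfaip6) and 1 with the plain total of reads (Runx1). Leaving out a library gave 0 to 1 called higher (Runx1, without DKO replicate 3) and 0 to 1 called lower (Cebpb, without DKO replicate 2). In DKO_TG against WT, 2 were called higher with TPM (Vcan and Runx1), 1 with the plain total (Runx1), 1 in a fit of the 6 libraries compared (Vcan) and 0 to 1 with a library left out (Vcan, without DKO replicate 3). Of the 4 genes the filter leaves out, Has2 was called lower after quantile normalization and Ptx3 higher with TPM in DKO_TG against WT (adjusted p = 0.0474 and 0.048 in limma), both without a filter. In DKO_TG against DKO all counts were 0. Limma-voom without a filter, and every setting applied to Areg, Btc, Has2 and Ptx3 without a filter, were chosen after seeing the data.

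The following log2 changes reversed sign. After quantile normalization, those in DKO against WT were -0.11 for Ereg, -0.0903 for Tnfaip6, -0.0414 for Runx1, -0.00698 for Btc, -0.14 for Has2 and -0.33 for Ptx3. Those in DKO_TG against WT were -0.0158 for Ereg, -0.23 for Tnfaip6, -0.0388 for Runx1, -0.15 for Btc, -0.19 for Has2, -0.20 for Ptx3, 0.0172 for Ctsl and -0.0507 for Runx1t1. That of Runx1 in DKO_TG against DKO was 0.00252. With TPM, Cebpb was at 0.0766 in DKO and 0.38 in DKO_TG against WT, Smad2 at 0.16 in DKO and Hyal2 at 0.15 in DKO_TG. With the plain total Cebpb was at 0.17 in DKO_TG against WT. Limma-voom without a filter gave -0.0575 for Ptx3 in DKO and -0.0818 for Has2 in DKO_TG against WT. With a library left out, values in DKO against WT ran from -0.29 to 0.0201 for Areg, -0.0879 to 0.10 for Ptx3, -0.0747 to 0.51 for Ereg and -0.29 to 0.47 for Vcan. In DKO_TG against DKO they ran from -0.18 to 0.40 for Ereg, -0.39 to 0.0834 for Tnfaip6 and -0.19 to 0.17 for Runx1, and in DKO_TG against WT from -0.0231 to 0.0546 for Has2, -0.00696 to 0.43 for Runx2 and -0.21 to 0.0674 for Cebpb. The cause was not tested.

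The replicate block was fitted although the labels do not say what a shared number means. Deviations of same-numbered libraries correlated at -0.31 to 0.14, and the replicate block left the count of called members at 0 in each comparison. Levels of Areg, Btc, Has2 and Ptx3 rest on 0 to 151 reads, which limits what could be detected.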
